A study of Mus musculus with 3 samples.

Results

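The genes examined are those of the proteasome, taken as every gene with a log ratio on all 3 arrays whose symbol is Psm followed by a letter from a to g and a number. The rule took 34 genes of the 3462 that could be tested. They comprised 6 alpha and 6 beta subunits of the constitutive core, the 3 inducible beta subunits Psmb8, Psmb9 and Psmb10, 6 ATPases and 7 other subunits of the regulatory cap, 3 activators (Psme2, Psme3 and Psme4), 2 assembly chaperones (Psmd9 and Psmd10) and Psme3ip1. Psme3ip1, a nuclear protein that binds the activator encoded by Psme3, carries a symbol that the rule takes and is not a proteasome subunit. The RefSeq mouse gene table lists 51 protein-coding genes of this pattern, and 35 of them had a spot annotated to a single gene. The thymic subunit Psmb11 had a value on one array only (-0.45 on T1). Psma5, Psmb3, Psmd1, Psmd3, Psmd6, Psmd12, Psme1, Psmf1 and the Psmg chaperones were among the genes not analysed here.

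The proteasome is the protease that degrades most ubiquitin-tagged proteins of the cytosol and nucleus. Its barrel-shaped core is built of alpha rings, which gate the entrance, around beta rings, which carry the active sites, and a cap of ATPases and non-ATPase subunits recognises, unfolds and feeds in the substrate. Interferon induces Psmb8, Psmb9 and Psmb10, which replace the constitutive active subunits Psmb5, Psmb6 and Psmb7 to form the immunoproteasome. This form also occurs without induction in lymphocytes and other blood cells and favours peptides that are presented on major histocompatibility complex class I molecules.

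The testosterone group consisted of 3 castrated C57BL/6 mice with a testosterone pellet, and the placebo group of 3 matched castrated C57BL/6 mice with a placebo pellet, all sampled for bone marrow RNA. The mice had been castrated at 7 weeks of age, received pellets of 12.5 mg (release over 60 days) for 4 weeks and were 17 weeks old. Each two-colour spotted array, T1, T2 or T3, held 1 testosterone and 1 placebo mouse, with testosterone in Cy5 on T1 and T3 and in Cy3 on T2. The labels call the tissue bone marrow, while the extraction protocol speaks of pulverised bone, and log ratios hold no level by which the tissue could be checked. Every value is taken as a log2 ratio, testosterone over placebo. That direction is likely but not settled, since it rests on the series' design text, which calls testosterone the experimental channel. No source gives the log base. Base 2 was assumed, and the span of the values, -3.37 to 4.47, does not settle it. Every fold value given here rests on that assumption.

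The promoters of the 3 inducible subunits and of Psmb5 are printed because the largest deviations of the family were those of Psmb8 and Psmb10, and Psmb5 is the constitutive subunit that Psmb8 replaces. The third inducible subunit, Psmb9 (mean -0.26), deviated less than Psme2 (-0.37) and Psmd8 (-0.32). Each promoter is the RefSeq window from 250 bases before to 50 bases after the gene start on assembly GRCm38.p6, read along the gene. Psmb8 lies at chr17:34197945-34198244 (plus strand), Psmb10 at chr8:105938343-105938642 (minus strand), Psmb9 at chr17:34187281-34187580 (minus strand) and Psmb5 at chr14:54617946-54618245 (minus strand). Capitals mark matches, on either strand, to the gamma-activated site TTCNNNGAA that STAT factors bind, the antioxidant response core TGACNNNGC or the NF-Y box CCAAT. No match overlapped another in these windows.
Psmb8: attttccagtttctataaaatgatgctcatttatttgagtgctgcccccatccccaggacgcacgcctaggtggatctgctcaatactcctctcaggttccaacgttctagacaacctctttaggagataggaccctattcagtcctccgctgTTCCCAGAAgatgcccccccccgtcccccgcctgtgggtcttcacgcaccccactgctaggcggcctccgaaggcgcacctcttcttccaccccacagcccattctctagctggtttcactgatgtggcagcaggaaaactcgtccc
Psmb10: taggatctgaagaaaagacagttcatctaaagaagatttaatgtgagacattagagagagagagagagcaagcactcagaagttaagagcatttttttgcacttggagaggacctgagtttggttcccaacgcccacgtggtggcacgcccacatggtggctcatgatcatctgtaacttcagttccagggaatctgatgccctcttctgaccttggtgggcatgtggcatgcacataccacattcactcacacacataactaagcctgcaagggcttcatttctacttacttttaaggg
Psmb9: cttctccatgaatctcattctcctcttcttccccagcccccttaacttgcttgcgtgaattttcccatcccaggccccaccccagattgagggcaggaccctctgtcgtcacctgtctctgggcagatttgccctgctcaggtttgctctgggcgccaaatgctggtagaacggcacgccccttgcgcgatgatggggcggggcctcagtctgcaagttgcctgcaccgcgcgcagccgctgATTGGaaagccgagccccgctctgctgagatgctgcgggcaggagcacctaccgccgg
Psmb5: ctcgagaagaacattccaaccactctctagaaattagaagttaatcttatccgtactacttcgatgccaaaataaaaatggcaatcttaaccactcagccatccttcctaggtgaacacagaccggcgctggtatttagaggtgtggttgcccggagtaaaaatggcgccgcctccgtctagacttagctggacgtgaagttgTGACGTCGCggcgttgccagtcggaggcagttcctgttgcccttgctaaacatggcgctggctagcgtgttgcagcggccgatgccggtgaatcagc

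Psmb8 held a gamma-activated site that began 97 bases before the gene start, Psmb9 an NF-Y box 8 bases before it and Psmb5 an antioxidant response core 47 bases before it. The Psmb10 window held none of these letters. The table held 33 promoter windows for 29 of the 34 genes. The gamma-activated site occurred in 2 of these 33 windows (6.06%), of Psmb8 and Psmd2, against 8.3% of all 32851 windows. The antioxidant response core occurred in 5 (15.2%), of Psmb5, Psmb6, Psmc6, Psmd9 and Psme4, against 12.4% of all windows, and the NF-Y box in 13 (39.4%), against 37.4%. These are matches of letters and not measured binding sites. In the RefSeq gene order of chromosome 17, Psmb9, Tap1, Psmb8 and Tap2 follow each other, Tap1 and Tap2 being the peptide transporter genes.

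Nearly the whole family lay on the side of lower expression with testosterone, by small amounts. The mean log2 ratio was below 0 for 33 of 34 genes, where 62.4% of all genes tested had a mean below 0. The ratio was below 0 on all 3 arrays for 27 of 34 genes, against 33.9% of all genes, was above 0 on all arrays for Psme3 alone, and had mixed signs for 6. The median of the 34 means was -0.19, against -0.071 over all genes. By limma with Benjamini-Hochberg adjustment over all 3462 genes, 1 of the 34 passed as lower, Psmb8, and 0 passed as higher, where 3.24% of all genes passed as lower and 1.68% as higher. At an unadjusted p under 0.05 there were 10 lower and 1 higher, where 16.1% of all genes were lower and 12% higher at that level. The share of members that passed the adjusted threshold was near that of all genes, of which 4.91% passed in either direction. In bulk RNA of this kind, fewer cells of a type and less RNA per cell cannot be told apart.

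**Figure D1:**
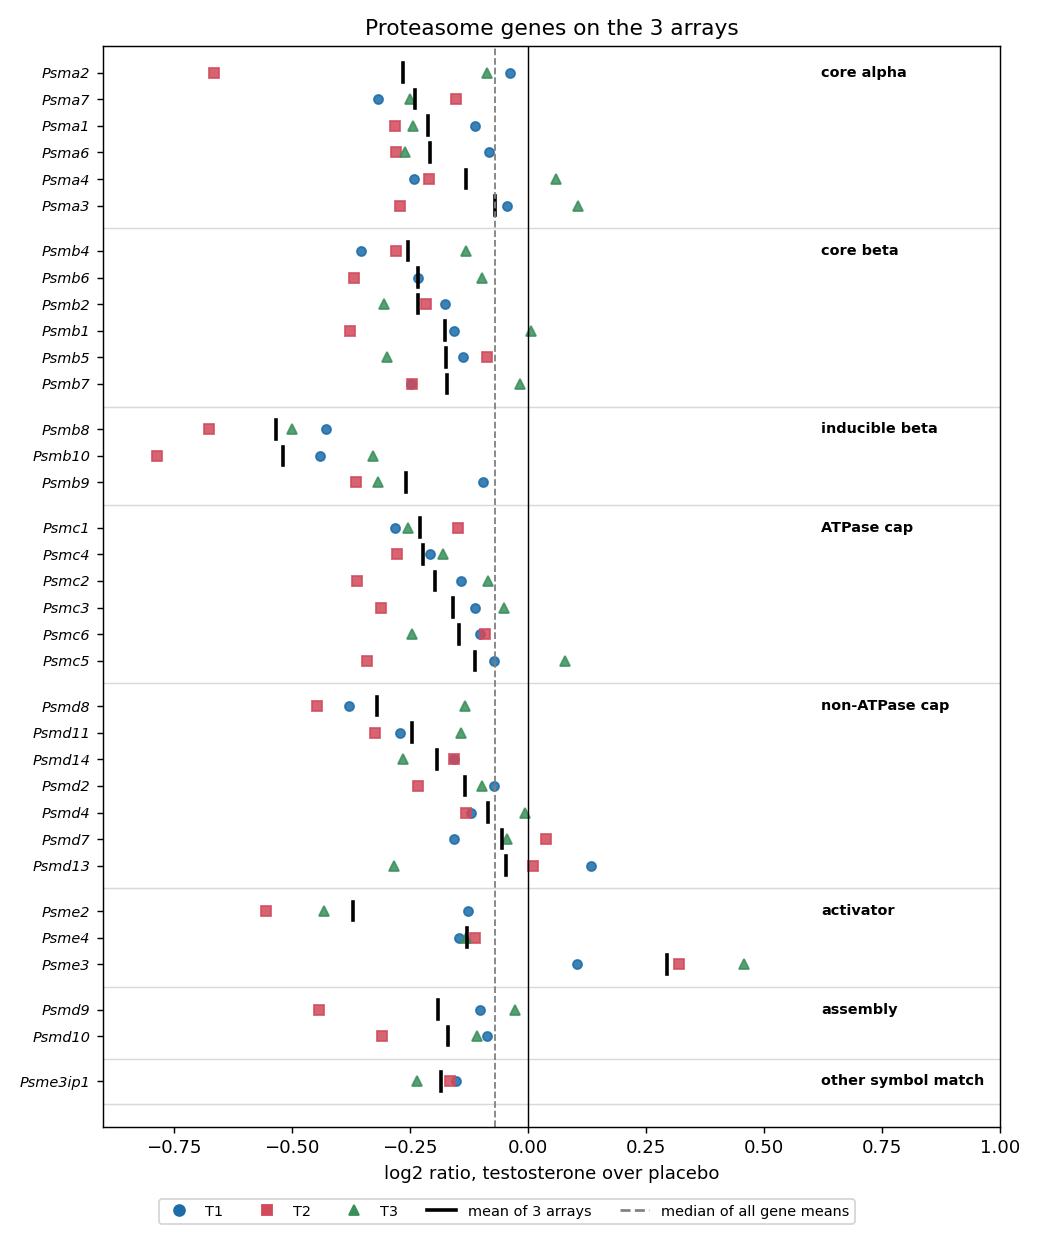
Log2 ratio of testosterone over placebo (horizontal axis) for each of the 34 proteasome genes, 1 per row and grouped by class, on T1 (circles), T2 (squares) and T3 (triangles). Black bars are means of the 3 arrays, the dashed line is the median of all gene means (-0.071), and Psme3 is the one gene with every array above 0.

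The shift was present on each array. On T1, T2 and T3 the members' median was -0.14, -0.28 and -0.13, against -0.038, -0.12 and -0.055 over all genes on the same arrays. Of the 34 genes, 32, 31 and 29 were below 0 on these arrays, and 32, 28 and 24 were below that array's median over all genes. T2, the array of opposite dyes, gave the most negative ratio for 20 of the 34 genes, where it did so for 44% of all genes. Psmb10 was the lowest member on T1 (-0.44) and on T2 (-0.79), and Psmb8 on T3 (-0.50). The highest member was the cap subunit Psmd13 on T1 (0.13) and Psme3 on T2 (0.32) and T3 (0.46).

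**Figure D2:**
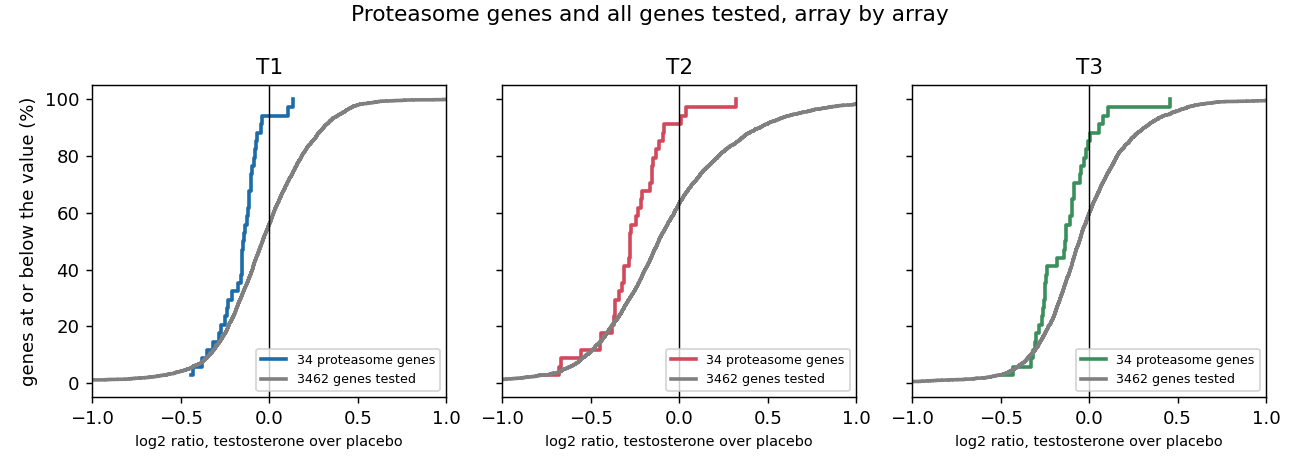
Percentage of genes (vertical axis) at or below each log2 ratio of testosterone over placebo (horizontal axis, drawn from -1 to 1), for the 34 proteasome genes (coloured) and the 3462 genes tested (grey) on T1, T2 and T3. On each array the coloured curve passes its midpoint left of the grey one, at -0.14, -0.28 and -0.13 against -0.038, -0.12 and -0.055.

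The inducible subunits included the member that fell, and their median of -0.52 was the lowest of any class. Psmb8, the inducible subunit with chymotrypsin-like activity, had ratios of -0.43 (T1), -0.68 (T2) and -0.50 (T3). All 3 arrays were below 0, and Psmb8 was 1.45-fold lower with testosterone than with placebo (mean -0.54 ± 0.13, SD, n = 3 arrays; 95% interval -0.77 to -0.30; limma adjusted p = 0.0409). By mean it was the 91st most negative of the 3462 genes. Psmb8 did not pass if T2 (adjusted p = 0.213) or T3 (0.273) was left out, after median centring (0.0528) or with the sign of T2 turned (mean -0.084, adjusted p = 0.999), and the adjusted p ran from 0.00232 to 0.999 over 13 alternatives.

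Psmb10, the inducible counterpart of Psmb7 and its trypsin-like activity, had -0.44 (T1), -0.79 (T2) and -0.33 (T3). These 3 values were also all below 0, with T2 farthest out (mean -0.52 ± 0.24; 1.43-fold lower; 95% interval -0.79 to -0.24). Its limma adjusted p of 0.0502 stood at the threshold of 0.05, and the gene passed in 8 of the 13 alternatives, its adjusted p running from 0.00511 without T1 to 0.999 with T2 turned. Psmb9, which replaces Psmb6, had -0.095 (T1), -0.36 (T2) and -0.32 (T3). T1 was nearest to 0, and Psmb9 did not pass (mean -0.26 ± 0.14, adjusted p = 0.158; 95% interval -0.50 to -0.018).

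The inducible subunits were set against the constitutive subunits they replace, array by array. Psmb5 had -0.14, -0.088 and -0.30 on T1, T2 and T3 (mean -0.175 ± 0.11, adjusted p = 0.288). Psmb8 was more negative than Psmb5 on every array, the difference of the log2 ratios being -0.29, -0.59 and -0.20 in turn (mean -0.36 ± 0.20). Psmb7 had -0.25, -0.25 and -0.017 as the mean of its 2 spots (mean -0.17 ± 0.13, adjusted p = 0.309). Psmb10 was likewise more negative than Psmb7 on every array, with differences of -0.19, -0.54 and -0.31 (mean -0.35 ± 0.18). The third pair had no common sign. Psmb6 had -0.23, -0.37 and -0.097 (mean -0.23 ± 0.14, adjusted p = 0.188), and Psmb9 minus Psmb6 was 0.14, 0.005 and -0.22 (mean -0.026 ± 0.18). An exact two-sided sign-flip test gave p = 0.25 for the Psmb8 and Psmb10 differences, the smallest that 3 arrays allow, and p = 1 for the Psmb9 difference.

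**Figure D3:**
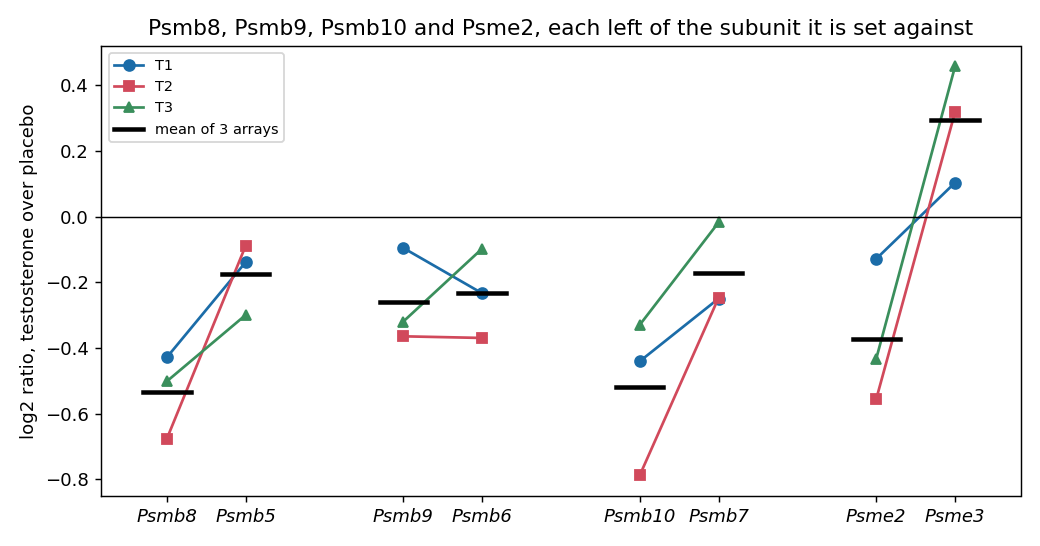
Log2 ratio of testosterone over placebo (vertical axis) for Psmb8, Psmb9, Psmb10 and Psme2, each to the left of the subunit it is set against, with 1 line per array and black bars for the means. Psmb8 (-0.54) and Psmb10 (-0.52) lie below Psmb5 (-0.175) and Psmb7 (-0.17) on all arrays, Psmb9 and Psmb6 cross, and Psme2 and Psme3 lie on opposite sides of 0.

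B lymphocytes express the immunoproteasome, and markers of their lineage were also lower with testosterone. Of 18 B-lineage markers listed, 9 were tested, of which 7 fell, 0 rose and 2 did not pass (Ms4a1, mean -0.25, and Cd24a). Among all genes tested, 3.24% passed as lower and 1.68% as higher. On T1, T2 and T3 the medians of these markers were -2.14, -2.24 and -1.65, and the gene means ran from -2.98 (Vpreb3) to 0.087 (Cd24a). The 7 that fell were Fcrla (-2.51), Cd79b (-2.11), Bach2 (-2.47), Blk (-1.56), Vpreb3, Pou2af1 (-2.07) and Il7r (-1.84), with adjusted p from 7.73e-05 to 0.00374. Il7r did not pass without T2 (adjusted p = 0.0611), and with T2 turned none of the 7 did (0.999). None of the 10 listed markers of T and natural killer cells was among the genes tested. Among the tested markers of other marrow and adjoining cells 0 passed by limma with the 3 arrays together. They were those of plasma cells (2, median -0.010), neutrophils (4, median 0.13), monocytes and macrophages (6, median 0.19), erythroid cells (6, median 0.31), osteoblasts and matrix (3, median -0.32) and skeletal muscle (5, median -0.42), of which 0, 0, 3, 3, 1 and 4 were below an unadjusted p of 0.05. Among all genes tested, 28.1% were below that p. The arrays differed in several of these lists. On T1, T2 and T3 the medians were 0.42, -1.11 and -0.16 for osteoblasts and matrix, -0.032, -0.82 and -0.45 for skeletal muscle, 0.51, -0.81 and 0.27 for plasma cells, and 0.64, 0.15 and -0.11 for neutrophils. Without T2 the medians of the means were 0.071 for osteoblasts and matrix, -0.23 for skeletal muscle and 0.39 for plasma cells, and without T1 that of neutrophils was -0.016. Monocytes and macrophages (0.25, 0.11 and 0.14) and erythroid cells (0.11, 0.38 and 0.33) had array medians of 1 sign. Without T1, limma called all 5 muscle markers (Acta1, Ckm, Eno3, Mylpf and Tpm2), all 3 of osteoblasts and matrix (Col1a1, Col1a2 and Sparc) and Mmp9 of the neutrophil list lower, and 4 erythroid markers (Fech, Hbb-b1, Prdx2 and Urod) higher. With a dye term, Ckm, Eno3, Mylpf, Tpm2 and Sparc were called lower, and after centring and scaling Mertk of the macrophage list was called higher. Of all genes tested, limma called 17.9954% without T1, 11.1% with a dye term and 8.95% after centring and scaling, in either direction. The part of cell composition in the lower Psmb8 ratio was not tested.

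The activators had ratios on both sides of 0, and 0 of 3 passed by limma (1 lower and 1 higher at an unadjusted p under 0.05). At that unadjusted p, 16.1% of all genes were lower and 12% higher. Psme2, a subunit of the interferon-inducible activator ring that opens the core, had -0.13 (T1), -0.56 (T2) and -0.43 (T3). All of these were below 0, with T1 nearest to it, and Psme2 did not pass (mean -0.37 ± 0.22, 1.29-fold, adjusted p = 0.0933; 0.0103 without T1). Psme2b is a close copy of Psme2 in the mouse genome, and whether this spot also detects it was not tested. Psme3, which forms the nuclear activator that interferon does not induce, had 0.10, 0.32 and 0.46 on T1, T2 and T3. It was the one member above 0 on every array (mean 0.29 ± 0.18, 1.23-fold, adjusted p = 0.134; 95% interval 0.042 to 0.55; 0.0457 without T1), at the 89.5th percentile of all gene means. Psme2 minus Psme3 was -0.23, -0.87 and -0.89 (mean -0.67 ± 0.38). This pair goes beyond the design as written, and its genes had the lowest and highest means of the 3 activators. That choice fixed the sign of the mean difference, so its exact sign-flip p of 0.25, the smallest possible, decides nothing. Psme4, the large nuclear activator, had closely matching ratios of -0.15, -0.11 and -0.13 (mean -0.13 ± 0.018, adjusted p = 0.399), and 2 further Psme4 spots had a value on T1 only, -0.335 and -0.41.

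The constitutive alpha subunits, which form the gated outer rings, had 6 of 6 means below 0 and a median of -0.21. No alpha subunit passed by limma, and Psma7 alone (1 of 6) was below an unadjusted p of 0.05 (mean -0.24 ± 0.083, with -0.32, -0.15 and -0.25 on T1, T2 and T3). Among all genes tested, 28.1% were below that p and 62.4% had a mean below 0. Psma2 had the most negative mean of the class, but it rested on 1 array. Its ratios were -0.039 (T1), -0.67 (T2) and -0.087 (T3) (mean -0.26 ± 0.35, adjusted p = 0.252; mean 0.18 with T2 turned). Psma3 was at the other end, with -0.045, -0.27 and 0.11 (mean -0.07 ± 0.19, adjusted p = 0.702), close to the median of all genes. Psma1, Psma6 and Psma4 had means of -0.21, -0.21 and -0.13, and Psma4 was above 0 on T3.

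The constitutive beta subunits had 6 of 6 means below 0 in a narrow range, from -0.25 to -0.17, with a median of -0.20. Again 0 passed by limma, while 2 were below an unadjusted p of 0.05, Psmb4 and Psmb2, both structural subunits without an active site. Among all genes tested, 28.1% were below that p and 62.4% had a mean below 0. Psmb4 had -0.35, -0.28 and -0.13 on T1, T2 and T3 (mean -0.25 ± 0.11, adjusted p = 0.156). Psmb2 had -0.18, -0.22 and -0.305 (mean -0.23 ± 0.066, adjusted p = 0.169), with little spread between the mouse pairs. Psmb1, another structural subunit, had -0.16, -0.38 and 0.007 (mean -0.18 ± 0.19). The SD of the 6 class means was 0.037. The SD of a single member between arrays (median 0.13) cannot be set against it, since it is taken over single arrays and not over means.

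In the regulatory cap, 13 of 13 means were below 0, with 0 past the limma threshold and 3 at an unadjusted p under 0.05. Among all genes tested, 62.4% had a mean below 0, 4.91% passed and 28.1% were below that unadjusted p. The ATPases, whose hexameric ring unfolds the substrate, had a median of -0.18. Psmc1 was the most negative of them, with -0.28, -0.15 and -0.255 on T1, T2 and T3 (mean -0.23 ± 0.071, adjusted p = 0.175), followed by Psmc4 at -0.22 ± 0.050. The Psmc4 values average 2 spots, which differed in sign on T3 (-0.407 and 0.046). Psmc5 was the least negative, with -0.072, -0.34 and 0.077 (mean -0.11 ± 0.21, adjusted p = 0.54). It had 2 spots, with means of -0.18 and -0.045, and was the one ATPase gene with an array above 0. Psmc2, Psmc3 and Psmc6 had means of -0.20, -0.16 and -0.15.

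The non-ATPase subunits had the least negative median among the classes of the core and cap, -0.13, and the widest range of means among the constitutive classes. Psmd8, a lid subunit, had -0.38 (T1), -0.45 (T2) and -0.13 (T3), all below 0 (mean -0.32 ± 0.17, 1.25-fold, adjusted p = 0.111; 95% interval -0.57 to -0.073). Psmd11, a lid subunit that contacts the core, had -0.27, -0.32 and -0.14 (mean -0.25 ± 0.094, adjusted p = 0.158). The deubiquitinase Psmd14 had -0.16, -0.16 and -0.265 (mean -0.19 ± 0.063, adjusted p = 0.236). Its partner Psmd7 lay nearer to 0, with -0.16, 0.037 and -0.044 (mean -0.054 ± 0.097). The scaffold subunit Psmd2 had a mean of -0.13, and its 3 spots ranged from -0.16 to -0.11. The ubiquitin receptor Psmd4 had -0.086 ± 0.069. Psmd13, also of the lid, had 0.13 (T1), 0.011 (T2) and -0.285 (T3), with signs that differed between mouse pairs (mean -0.047 ± 0.22, adjusted p = 0.815).

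The chaperones that assemble the cap's base gave similar means. Psmd9 had -0.10, -0.44 and -0.027 on T1, T2 and T3 (mean -0.19 ± 0.22, adjusted p = 0.31), and Psmd10, also known as gankyrin, had -0.088, -0.31 and -0.11 (mean -0.17 ± 0.12, adjusted p = 0.309). In both, T2 was far below the other arrays. Psme3ip1, the binding partner of the Psme3 product, had -0.15, -0.165 and -0.24 (mean -0.18 ± 0.045, adjusted p = 0.248). It thus lay below 0 on every array, where Psme3 lay above.

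Repeated spots of a gene can be set against each other. Of the 34 genes, 5 were spotted more than once, with 11 spots in all. The means of the spots of a gene differed by 0.005 for Psmb7, 0.042 for Psmd2, 0.079 for Psma1, 0.13 for Psmc5 and 0.145 for Psmc4. These are means over the 3 arrays, and spots could lie farther apart on a single array. The Psmc4 spots had -0.407 and 0.046 on T3, the Psmc5 spots -0.508 and -0.175 on T2, and the Psmb7 spots 0.082 and -0.116 on T3. Every one of the 11 spot means was below 0. The median half-width of the 95% interval of a member was 0.237, wider than the members' median deviation of -0.19.

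Genes that work with the proteasome had a median closer to 0. Of 30 partners listed (regulators, chaperones, shuttle factors, ubiquitin genes and activating enzymes), 8 were tested, with a median of -0.019. Uba6, an enzyme that activates ubiquitin, had 0.47, 0.48 and 0.44 on T1, T2 and T3, closely alike. It rose with testosterone by 1.38-fold (mean 0.46 ± 0.023, limma adjusted p = 0.0467). Uba6 was the 1 partner that passed, where 4.91% of all genes passed. Uba6 did not pass if T2 (adjusted p = 0.216) or T3 (0.273) was left out or with T2 turned (mean 0.14, adjusted p = 0.999), and its adjusted p was at its lowest, 0.0167, without T1. Of the other 7, Akirin2, which brings proteasomes into the nucleus, had -0.18 ± 0.006, the shuttle factor Ubqln2 -0.13 ± 0.21 and the assembly chaperone Pomp 0.12 ± 0.15. The 3 spots of Pomp disagreed, with means of -0.11, -0.11 and 0.58 (adjusted p of the last 0.0563).

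Genes of class I antigen processing and of the interferon response were examined because the inducible subunits belong to both. Of 14 antigen-processing genes listed, 5 were tested, but not Tap1, Tap2, Tapbp, Erap1, Nlrc5 or the listed class I heavy chain genes. The median of the 5 was -0.011, with medians of 0.11, -0.14 and 0.013 on T1, T2 and T3. Limma called 0 of them, and 0 were below an unadjusted p of 0.05 (28.1% of all genes were). The 4 of smallest p were Tapbpl (0.22 ± 0.19), a peptide-loading factor, the chaperones Calr (-0.11 ± 0.14) and Canx (-0.011 ± 0.092), and B2m (-0.072 ± 0.23), the light chain of the class I molecule. Of 23 interferon regulators and targets listed, 10 were tested, with a median of -0.088 and medians of 0.025, -0.34 and -0.055 on T1, T2 and T3 (-0.045 without T2). Ly6e, a surface antigen that interferon induces, was the 1 that passed, where 4.91% of all genes passed. It fell, with -0.41, -0.57 and -0.39 on the 3 arrays (mean -0.46 ± 0.10, 1.375-fold lower, limma adjusted p = 0.0469). Ly6e did not pass if T2 (0.227) or T3 (0.273) was left out, after median centring (0.0613) or with T2 turned (0.999), and its lowest adjusted p was 0.0123, without T1. Irf1, a transcription factor of the interferon response, had -0.25 ± 0.21 and the GTPase Ifi47 -0.25 ± 0.29, while Ube2l6, which conjugates the ubiquitin-like Isg15, had 0.38 ± 0.33. None of these 3 passed, although without T1 Ifi47 was called lower and Ube2l6 higher, where 17.9954% of all genes were called. Each of the 3 lists had members on both sides of 0, but not evenly. Means were below 0 for 4 of 8 partners, 3 of 5 antigen-processing genes and 9 of 10 interferon genes (all but Ube2l6). Among all genes tested, 62.4% had a mean below 0.

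**Figure D4:**
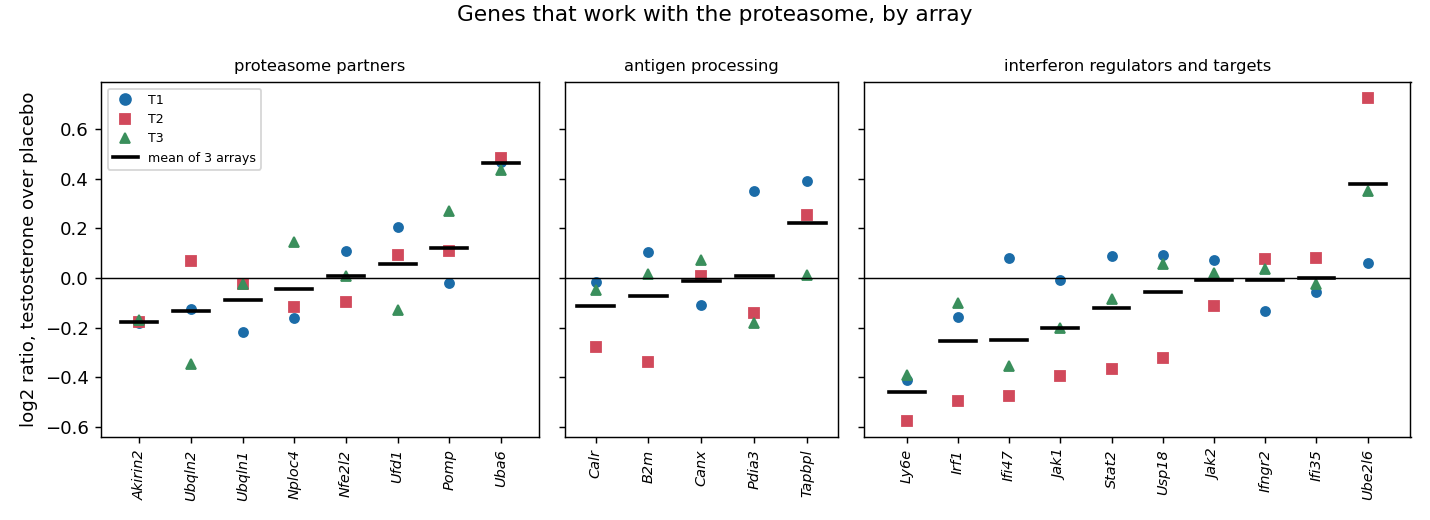
Log2 ratio of testosterone over placebo (vertical axis) on T1 (circles), T2 (squares) and T3 (triangles), with black bars for the means, for the tested genes of 3 lists: 8 partners of the proteasome, 5 genes of antigen processing and 10 interferon regulators and targets. Means run from -0.46 (Ly6e) to 0.46 (Uba6), and 4 of 8, 3 of 5 and 9 of 10 means in these lists are below 0.

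The family's position relative to all genes varied little with most processing choices and changed with the orientation of T2. The members' median was -0.12 after each array was centred on its median and -0.13 after centring and scaling, where the median of all genes was close to 0. With T2 turned, in which case treatment and dye change places, it was -0.019, against 0.0053 for all genes, and 20 of 34 means were below 0. Over all genes, 170 passed, 58 higher and 112 lower (34.1% higher), while after centring and scaling 204 of 310 were higher (65.8%), and after the dye term 180 of 385 (46.8%).

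**Figure D5:**
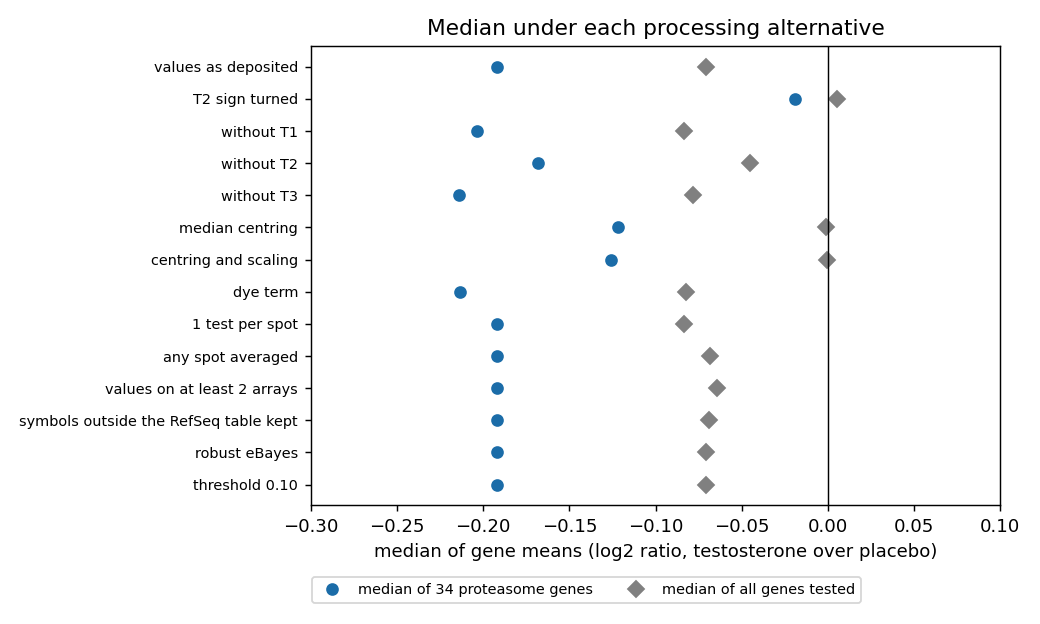
Median of the gene means (horizontal axis, log2 ratio of testosterone over placebo) of the 34 proteasome genes (circles) and of all genes tested (diamonds) under the values as deposited and each of 13 alternatives, 1 per row. The circle lies left of the diamond in every row, the members' median minus that of all genes being -0.121 for the values as deposited and -0.024 with the sign of T2 turned.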

How the data were processed

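The authors deposited a signed log ratio for each spot of each array, read here as log2 and used as deposited. How the arrays were scanned, background-corrected and filtered is not given in the sources used here. The mean of each of 32 consecutive runs of 361 spots lay within 0.0542 of 0, so ratios are relative to the average spot. T2 kept its deposited sign, since it correlated positively with T1 (Pearson r = 0.428 over all spots) and T3 (0.733). The r of T1 with T3, the arrays of like dyes, was 0.482, so T1 was the array least like the others. Values were present at 9007 (T1), 6771 (T2) and 6982 (T3) of 11552 spots, and spot brightness was not analysed here. Of 4600 spots with 1 annotated gene and values on all arrays, 4554 had an Entrez ID in the RefSeq gene table (GRCm38.p6) and were averaged to 3462 genes. Leaving out the other 46, among them control spots, goes beyond the design as written, and keeping them was run as an alternative. A two-sided moderated test against 0 was run for each gene in R 4.3.3 (limma 3.58.1, lmFit and eBayes). P-values were adjusted by Benjamini-Hochberg over all genes, and 0.05 was the threshold. The procedure was tested on simulated data. The number of arrays limits the precision, and nothing but the labels says that the mouse pairs are independent.

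The members and lists were chosen with earlier results of these data known. Members were named if they passed, were inducible subunits or their counterparts, or were the most or least negative of a class, and all others are given more briefly. From the other lists, the 4 genes of smallest p and any that passed were named.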

Additional observations from a re-analysis of the deposited data

How the results depend on the processing

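The median of the proteasome genes (-0.19) and its difference from that of all genes (-0.121) moved by less than their SD between arrays under the alternatives run, except with the sign of T2 turned, where they were -0.019 and -0.024. Robust eBayes and the threshold of 0.10 change no mean, so they could move neither value. Median centring shifts all genes alike, so it could not move the difference. The count of genes that passed, 170, was 0 with T2 turned, 100 after median centring, 310 after centring and scaling, 385 with a dye term and 498 at a threshold of 0.10, and ran from 33 to 623 when single arrays were left out (623 without T1, 35 without T2, 33 without T3). The count of proteasome genes that passed, 1, was 0 with T2 turned and after median centring. It was 2 (Psmb8 and Psmb10) after centring and scaling, with a dye term, with 1 test per spot, with any spot averaged, with robust eBayes and, added after the data were seen, with symbols outside the RefSeq table kept, and 3 (with Psme2) at a threshold of 0.10. It ran from 0 without T2 or T3 to 4 without T1 (Psmb8, Psmb10, Psme2 and Psme3). The 4 of 34 without T1 were a smaller share than the 17.9954% of all genes that passed there. So were the 3 at a threshold of 0.10 (14.4% of all genes). The 2 were a smaller share with a dye term (11.1%), after centring and scaling (8.95%) and with 1 test per spot (6.3%). They were a larger share with any spot averaged (4.77%), robust eBayes (4.82%) and symbols outside the RefSeq table kept (5.14%). The means of 13 members changed sign with T2 turned: Psma2 (0.18), Psma3 (0.11), Psma4 (0.0093), Psmb1 (0.076), Psmb10 (0.006), Psmb6 (0.013), Psmc2 (0.046), Psmc3 (0.049), Psmc5 (0.12), Psmd10 (0.038), Psmd2 (0.021), Psmd4 (0.0017) and Psmd9 (0.10). The other changes of sign were of Psmd13 and Psmd7 after median centring (0.023 and 0.015) and after centring and scaling (0.0033 and 0.0017), Psma3 after centring and scaling (0.021), and, without single arrays, Psma3 (from -0.16 to 0.031), Psmc5 (from -0.21 to 0.0023) and Psmd13 (from -0.14 to 0.073). The cause was not tested. Signal over background was not analysed here, so its limit on dim spots is unknown.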
